A study of Mus musculus with 4 samples.

Results

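The replication-dependent histone genes were examined in RAW264.7, a mouse macrophage line, from lists of ATAC-seq peaks. Members were chosen by name: protein-coding genes whose older symbol began with Hist1h, Hist2h, Hist3h or Hist4h, or whose current symbol was H2ac, H2bc, H3c or H4c with a number or H1f1 to H1f5. This gave 67 of 21883 protein-coding genes on chromosomes 1 to 19, X and Y, of which 21464 had a known strand, members included. The rule used names and no peak value, but it was set with earlier results of these data known. The members comprised 18 genes for H2A, 18 for H2B, 12 for H3, 13 for H4 and 6 for the linker histone H1.

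In ATAC-seq the Tn5 transposase inserts adapters into open DNA, so that reads pile up where chromatin is accessible. All cells were labelled wild type and were treated with oxidized low-density lipoprotein bearing the dye DIL (25 ug/mL, 24 h). The control group (2 libraries) had the solvent DMSO with it and the esculetin group (2 libraries) had 40 ug/mL of esculetin, a plant coumarin. RAW264.7 is a single transformed line, and the labels did not say whether libraries of a group came from separate cultures, so p-values measure only the spread between these libraries.

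Replication-dependent histone genes supply the proteins that package newly made DNA and are expressed mainly in S phase. They lack introns, their transcripts end in a stem-loop bound by SLBP rather than in a poly(A) tail, and their clusters gather in the nuclear histone locus body with the coactivator NPAT. H2A and H2B genes often lie head to head, so that 1 stretch of DNA between both starts serves both genes. CCAAT boxes, TATA boxes and, in H2B promoters, an octamer bound by OCT1 (Pou2f1) are known elements of these promoters.

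The members lay in 4 regions and 1 single locus (mm10). On chromosome 13, 23 genes lay between 21715711 and 22043658 (the first block) and 31 between 23531044 and 23934913 (the second block). On chromosome 3, 10 genes lay between 96219885 and 96270192. H2bu2 and H2aw lay on chromosome 11 between 58948911 and 58955192, and the H4 gene H4f16 on chromosome 6 between 136803993 and 136804431. Opposite strands with starts at most 1000 bp apart defined 13 head-to-head pairs, 12 of them of an H2A with an H2B gene and 1 of H2bc9 with H3c7. The starts of a pair were 164 to 608 bp apart (median 229), and 26 genes were in a pair and 41 were not.

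The bases before the start are shown for the 3 pairs with the highest minimum percentile, for a pair with no peak in any library, and for single genes that stand for different patterns described afterwards. Sequences are from RefSeq (GRCm38.p6, whose chromosomes are those of mm10) and run 5′ to 3′ on the strand of the gene named first, ending just before its start. Capitals mark a match, on either strand, to the CCAAT box (letters CCAAT), the TATA box (letters TATAAA) or the octamer (letters ATTTGCAT); a match on the other strand reads as the reverse complement.

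The whole stretch between the starts of H2ac6 and H2bc4 (chr13:23683960-23684198, minus strand) had 239 bases, with 3 CCAAT boxes, 1 TATA box and 1 octamer. That between H2bc13 and H2ac13 (chr13:21716184-21716411, plus strand) had 228 bases with 4 CCAAT matches.
H2ac6-H2bc4: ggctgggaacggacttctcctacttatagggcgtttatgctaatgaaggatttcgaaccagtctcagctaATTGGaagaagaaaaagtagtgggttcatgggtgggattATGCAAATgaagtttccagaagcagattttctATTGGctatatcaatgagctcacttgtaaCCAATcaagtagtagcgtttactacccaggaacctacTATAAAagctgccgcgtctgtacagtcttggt
H2ac13-H2bc13: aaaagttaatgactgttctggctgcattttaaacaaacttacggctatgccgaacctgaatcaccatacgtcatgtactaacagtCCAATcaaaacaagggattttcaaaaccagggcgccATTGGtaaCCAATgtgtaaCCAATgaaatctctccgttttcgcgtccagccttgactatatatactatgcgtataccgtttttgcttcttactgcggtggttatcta

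For H2bc9, whose partner H3c7 starts 608 bp away, the 250 bases before the start are given (chr13:23543445-23543694, minus strand). They held 3 CCAAT matches. The pair of H2ac1 and H2bc1, which encode testis variants, had no peak in any library, and the 250 bases before H2ac1 (chr13:23934187-23934436, plus strand) held 4 CCAAT boxes, 2 TATA boxes and 1 octamer.
H2bc9: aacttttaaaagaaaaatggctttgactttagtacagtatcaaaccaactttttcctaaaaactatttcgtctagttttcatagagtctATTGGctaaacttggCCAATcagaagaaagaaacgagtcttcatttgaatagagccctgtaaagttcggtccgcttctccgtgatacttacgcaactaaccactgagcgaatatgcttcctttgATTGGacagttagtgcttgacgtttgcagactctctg
H2ac1: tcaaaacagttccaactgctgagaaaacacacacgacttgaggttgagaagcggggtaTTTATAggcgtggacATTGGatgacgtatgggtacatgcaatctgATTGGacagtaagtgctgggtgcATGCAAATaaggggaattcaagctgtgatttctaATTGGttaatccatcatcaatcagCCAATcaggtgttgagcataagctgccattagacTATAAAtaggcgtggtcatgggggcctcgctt

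H3c15 (chr3:96239128-96239377, minus strand) had the highest minimum percentile of all members and none of the motifs. H4c12 (chr13:21750554-21750803, minus strand) had a peak in the control libraries only, and H4c1 (chr13:23761250-23761499, minus strand) had a higher percentile in both esculetin libraries than in both controls.
H3c15: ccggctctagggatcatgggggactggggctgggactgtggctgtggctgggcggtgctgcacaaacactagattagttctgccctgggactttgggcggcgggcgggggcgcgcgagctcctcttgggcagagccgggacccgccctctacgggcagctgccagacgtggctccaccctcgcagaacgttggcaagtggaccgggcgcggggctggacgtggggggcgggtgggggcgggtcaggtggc
H4c12: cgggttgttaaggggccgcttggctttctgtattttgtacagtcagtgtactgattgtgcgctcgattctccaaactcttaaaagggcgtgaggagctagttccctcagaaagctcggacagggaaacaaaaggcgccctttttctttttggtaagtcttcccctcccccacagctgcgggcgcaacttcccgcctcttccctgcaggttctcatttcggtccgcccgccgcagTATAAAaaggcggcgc
H4c1: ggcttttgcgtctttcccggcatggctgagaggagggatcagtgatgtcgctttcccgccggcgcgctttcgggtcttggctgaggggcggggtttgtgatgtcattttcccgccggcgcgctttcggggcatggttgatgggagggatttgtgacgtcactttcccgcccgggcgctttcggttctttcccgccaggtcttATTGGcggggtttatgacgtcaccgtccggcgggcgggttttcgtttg

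A promoter sequence was in the RefSeq table for 62 of the 67 members (not for H2bc21, H4c14, H3c7, H2bc4 and H3c1). In the 250 bases before the start, the CCAAT box was found in 51 of these (82.3%), the TATA box in 29 (46.8%) and the octamer in 13 (21.0%). Over all 17491 protein-coding promoters of the table, the shares were 36.5%, 12.4% and 1.62%. Every H2A, H2B and H1 promoter read here held CCAAT (18, 16 and 6 genes), and so did 8 of 10 H3 promoters but 3 of 12 H4 promoters. The octamer was found in 7 of 18 H2A and 6 of 16 H2B promoters and in no H1, H3 or H4 promoter. The TATA box stood in 14 of the 41 promoters with a peak in all 4 libraries, in 11 of 16 with a peak in 1 to 3, and in 4 of 5 with none. These matches describe the letters in a window and are not shown to be bound.

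The lists differed in ways that bear on what follows. On the chromosomes used, the control lists were 19475 and 27731 peaks long (replicates 1 and 2) and the esculetin lists 8581 and 12680. The depth, as the background coverage solved from the lists, was 6.51, 4.08, 4.97 and 4.10, so that control replicate 2 and esculetin replicate 2 were nearly equal in this measure but not in the length of their lists. Control replicate 2 stood apart in that 7.40% of its summits lay in annotated pseudogenes, against 1.97%, 1.24% and 0.836% in the others. Of 10 macrophage markers, 5 and 8 had a peak in the gene or within 1 kb of it in the controls, and 2 and 3 with esculetin. Spi1, the master regulator of macrophages, had a promoter peak in all 4, whereas Csf1r, Adgre1 and Itgam had none at the start used here. No promoter peak was called at any of 6 kidney epithelium, 4 fibroblast or 4 T cell markers. Elsewhere in those genes a peak was called at Lck, Pax2 and Cdh16 in control replicate 1 and at Col1a1 and Col1a2 in control replicate 2, and at none with esculetin. Their part in the results was not tested.

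Nearly all histone promoters were accessible in the control libraries. Of the 67 genes, 60 (89.6%) in control replicate 1 and 61 (91.0%) in control replicate 2 had a peak summit within 1 kb of the start, as did 45 (67.2%) in esculetin replicate 1 and 54 (80.6%) in esculetin replicate 2. Over all protein-coding genes the shares were 37.3%, 38.8%, 27.9% and 34.9% in the same order. A start near a called summit was thus more frequent among histone genes than among coding genes in each list. In all 4 libraries a peak was called at 45 members (67.2%), against 24.8% of coding genes, and in none at 5 members against 56.4%. Other coding genes of at most 1 kb, the length class of most members, had a promoter peak in 3.31%, 3.53%, 1.84% and 2.35%, and in all 4 libraries in 1.54%. Since genes of a pair share a peak, the 53 separate promoters were also counted, and 47, 48, 33 and 41 of them had a peak.

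Both esculetin libraries had fewer histone genes with a peak than both control libraries. The share averaged 90.3% ± 1.06 in the controls and 73.9% ± 9.50 with esculetin (SD, n = 2 libraries), and the groups, which did not overlap, differed by -16.4 percentage points. With 2 against 2 libraries a two-sided exact permutation test cannot go below p = 0.33, the p found here. Without esculetin replicate 1 the difference was -9.70 points. With summits within 250 bp of the start it was -2.99 points (exact permutation p = 1) and the groups overlapped, since esculetin replicate 2 (76.1%) lay above both controls (68.7% and 73.1%) and esculetin replicate 1 (59.7%) below them. The direction depended on the length of the lists. Among the 8581 strongest peaks of each library, 30 (44.8%) and 15 (22.4%) control calls at histone genes stood against 45 (67.2%) and 49 (73.1%) esculetin calls. Coding genes at large had 25.5%, 17.9%, 27.9% and 30.2% there. A missing call can lie just below the caller's limit and is no measure of signal, and in bulk libraries fewer cells with an open promoter and less opening per cell cannot be told apart.

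**Figure D1:**
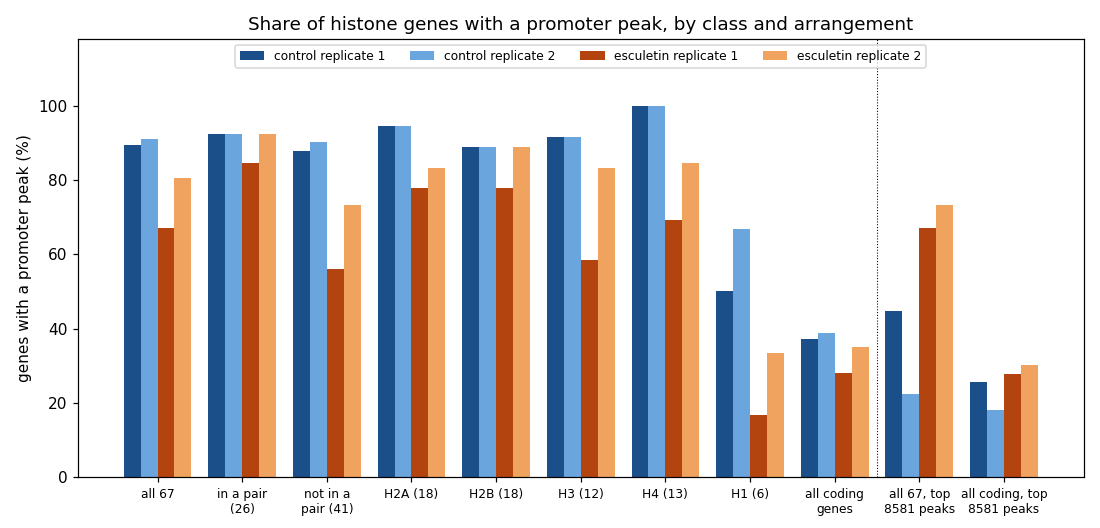
Share of genes with a promoter peak (%, vertical axis) in each library (colours), for all 67 histone genes, by pair and class, and for all coding genes; the last 2 groups use the 8581 strongest peaks of each list. Bars of the H4 class reach 13 of 13 genes in both control libraries, and the order of control and esculetin for all 67 genes turns over right of the dotted line.

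By class, H4 genes were complete in the controls, with 13 of 13 called in both, while 9 and 11 of 13 were called with esculetin. H2A genes were called at 17, 17, 14 and 15 of 18 starts in the order control replicates 1 and 2, esculetin replicates 1 and 2. H2B genes were called at 16, 16, 14 and 16 of 18, and H3 genes at 11, 11, 7 and 10 of 12. H1 genes, which encode the histones that bind linker DNA between nucleosomes, were called least, at 3, 4, 1 and 2 of 6. H1f2 was the 1 linker gene with a peak in all 4 libraries (percentiles 81.3, 65.7, 52.1 and 61.0), although its strongest summit lay past the end of the gene in control replicate 1 and esculetin replicate 1. A percentile is the share of the library's own list that had a weaker p-value, so that a longer list can raise it.

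The arrangement of the genes went with these counts. Paired genes were called at 24, 24, 22 and 24 of 26 starts, and genes outside pairs at 36, 37, 23 and 30 of 41. Arrangement largely went with class, since 12 of the 13 pairs joined an H2A and an H2B gene and no H4 or H1 gene was in a pair. Outside pairs, H2A genes were called at 6, 6, 4 and 4 of 6 starts and H2B genes at 4, 4, 3 and 4 of 5. The paired minus the unpaired share was 4.50 and 2.06 percentage points in the controls and 28.5 and 19.1 with esculetin, with no overlap of the groups. It averaged 3.28 ± 1.72 against 23.8 ± 6.63 (SD, n = 2 libraries; exact permutation p = 0.33). The level in the controls depended on the limits, with an average of 15.5 at a −log10 q of at least 5, 14.3 with equal numbers of top peaks and -5.86 with summits within 250 bp, against 32.4, 29.9 and 17.9 with esculetin. Over all 1468 coding genes in such pairs, 83.4%, 84.7%, 72.3% and 82.9% had a peak, and over the 19996 not in pairs 33.9%, 35.4%, 24.6% and 31.4%. Genes of 1 pair shared the same summit in every library in which the pair had a peak, so they do not count as separate observations.

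The position along the genome went with them as well. All 10 genes of the chromosome 3 cluster had a peak in every library. In the first block of chromosome 13 the counts were 22, 23, 19 and 20 of 23, and in the second block 26, 26, 14 and 22 of 31. The authors removed reads that mapped to several places, and the effect of this on histone genes that resemble each other in sequence was not tested.

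A total of 5 of the 67 members had a peak in no library, and 3 of these encode variants known from the testis. H2ac1 and H2bc1 form the testis pair whose sequence is shown above. H1f6 encodes the testis linker histone H1t, and H1f1 the linker histone H1.1. H2bu2 is an H2B gene on chromosome 11.

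Another 6 genes had a peak in both controls and in neither esculetin library (3.34% of coding genes did so), and all 6 lay outside pairs. H4c12 had percentiles of 45.5 and 35.1 in the controls and H4c17 had 29.9 and 45.1. H2ac4 reached 40.3 and 70.7, and H2ac10 was near the bottom of both lists (10.6 and 4.55). H3c8 (33.1 and 42.6) and the linker gene H1f3 (47.4 and 47.9) completed this set. The summits at H2ac4 lay 376 and 382 bp past the start, and with summits within 250 bp neither group had a call there. At H4c17 the summit of control replicate 2 lay 525 bp past the start and past the gene. No member had a peak in both esculetin libraries and neither control, against 0.41% of coding genes. With equal numbers of top peaks H2ac4 had 1 more control than esculetin call. The other 5 then had no call in any library, since their control peaks ranked below that cut, so this setting cannot compare the groups there.

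Calls in 1 to 3 libraries were found at 17 members, against 18.8% of coding genes, and those not yet named mostly lacked only esculetin replicate 1, the shortest list. The H3 genes H3c11 (9.33, 38.1 and 39.2 in control replicates 1 and 2 and esculetin replicate 2) and H3c3 (30.6, 23.3 and 46.1) were among them. In control replicate 1 and esculetin replicate 2 the peak counted for H3c3 had its summit at -943 and -791 bp from its start and was that of its neighbour H2bc3. The H4 genes H4c6 (29.4, 3.13 and 36.3) and H4c2 (24.3, 17.1 and 35.3) had low percentiles. The pair H2ac8-H2bc8 had 22.8, 38.9 and 70.0 and was highest in esculetin replicate 2. For H2bc6 (75.4, 62.7 and 74.5) and the adjacent linker gene H1f4 (75.4, 62.7 and 49.3), the strongest peak in the window was the same in both controls. It lay between the 2 genes, and in esculetin replicate 2 each gene had its own. With summits within 250 bp H1f4 was still called in both controls, so it also had a nearer but weaker peak there. For H2bc6 a second start in RefSeq lies 35154 bp from the 5′ end used here, and there the percentiles were 79.2 and 65.7 in the controls and 42.1 and 50.7 in the esculetin libraries, so a call in esculetin replicate 1 exists at that start.

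The remaining partial calls were weak. H1f5 was called in control replicate 2 alone (16.5) and H3c4 in control replicate 1 alone (9.97). H3c1 was called in control replicate 2 (9.01) and esculetin replicate 2 (18.5).

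**Figure D2:**
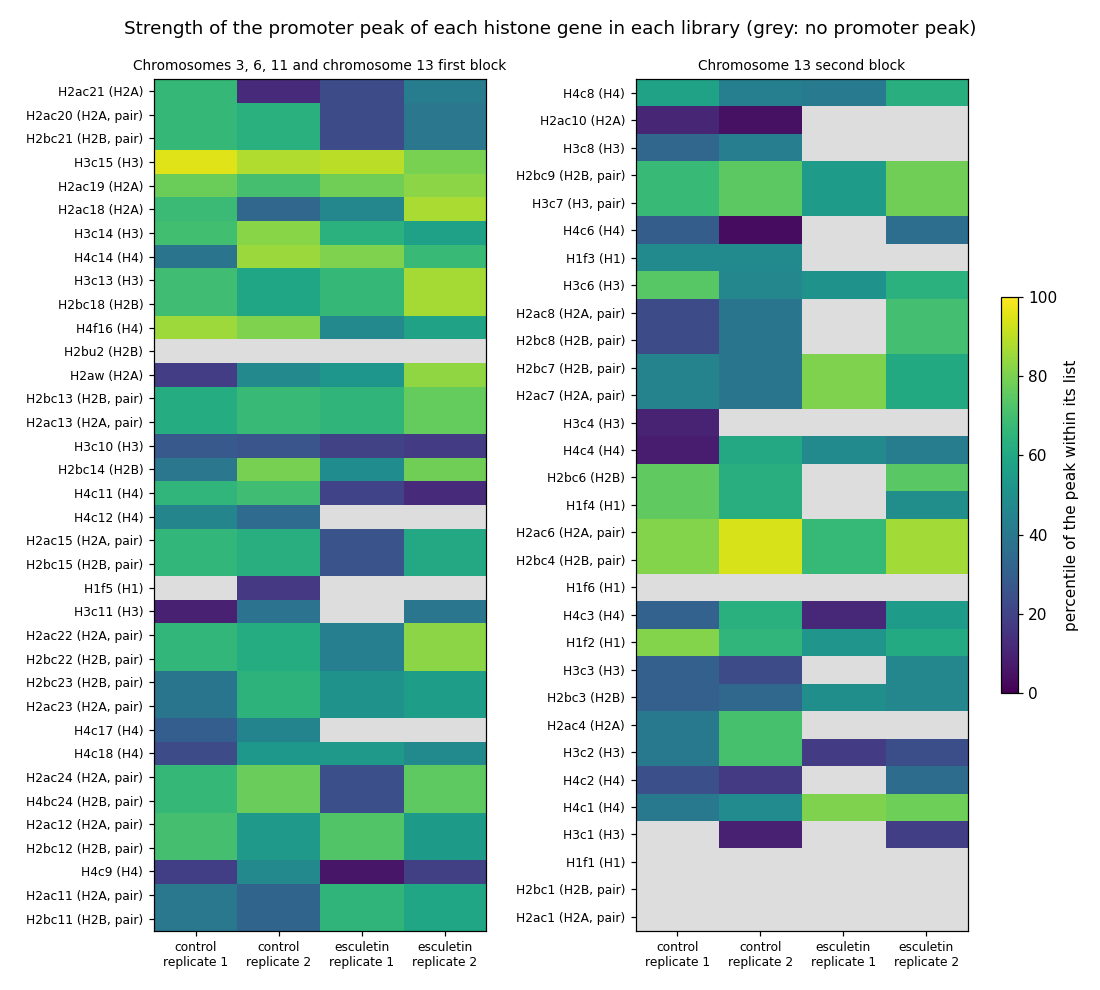
Percentile of the promoter peak within its own list (colour, 0 to 100) for each of 67 histone genes (rows, in genome order, with class and pairing) in each library (columns); grey marks no promoter peak. Grey cells gather in the esculetin columns of the second block of chromosome 13, and the 5 rows that are grey throughout are H2bu2, H1f6, H1f1, H2bc1 and H2ac1.

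Histone promoters were called often but, among genes with a peak in all 4 libraries, ranked below the other promoters. Over the 45 genes with a peak in all 4 libraries, the median percentile was 66.3 and 62.7 in the controls and 51.5 and 60.7 with esculetin. For the 5276 other coding genes with a peak in all 4, it was 80.3, 75.3, 64.0 and 76.2. The histone median was thus the lower in every list. Ranked among all coding promoter peaks of a library instead, the histone medians averaged 49.4 in the controls and 43.1 with esculetin, near the middle in the controls. The histone medians averaged 64.5 ± 2.54 in the controls and 56.1 ± 6.52 with esculetin (SD, n = 2 libraries; exact permutation p = 0.33), and the direction was the opposite with equal numbers of top peaks, at 36.1 and 63.7. Without esculetin replicate 1 the difference was -3.09 in place of -8.40. It also turned in direction when peaks were ranked by fold (1.18) and over the genes with a peak in each library in turn (0.107).

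Peak height did not separate the groups. The summit coverage over the background of the library, which scales for depth, had medians of 6.30 and 9.56 in the controls and 6.84 and 9.51 with esculetin. The other coding genes had 7.07, 9.80, 7.24 and 9.88. The spread between libraries of 1 group was larger than the difference of the means (7.93 ± 2.31 against 8.18 ± 1.89, SD, n = 2 libraries; p = 1 by exact permutation), and the sign of the difference turned when control replicate 1 (-1.38) or esculetin replicate 2 (-1.09) was left out, from 0.248. Both esculetin values lay above both controls at 5 of 45 members (11.1%, against 18.4% of coding genes) and below at 2 (4.44%, against 10.3%). Since genes can share a peak, the 45 members had 33 distinct peaks, of which 3 lay above and 2 below.

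Single genes moved both ways in percentile. Both esculetin values lay below both controls at 10 of 45 members (22.2%, against 29.5% of coding genes) and above at 8 (17.8%, against 14.7%), or at 8 and 6 of the 33 distinct peaks. H4c11 had 65.7 and 69.3 in the controls and 20.2 and 12.2 with esculetin, and its coverage over background was also lower, at 5.38 and 7.84 against 4.43 and 4.39. H4c1 went the other way, from 40.3 and 48.2 to 80.8 and 77.8, with coverage of 6.30 and 8.82 against 10.3 and 12.2. The pair H2ac7-H2bc7 also lay higher with esculetin on both scales, with percentiles of 44.8 and 39.0 against 80.6 and 60.7. H4c11 and H4c1 encode the same core histone.

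The strongest members were led by H3c15 on chromosome 3, an H3 gene, at percentiles of 95.0 and 88.1 in the controls and 89.6 and 80.0 in the esculetin libraries. H2ac19, also on chromosome 3, had 77.7, 70.4, 78.2 and 82.4. The pair H2ac6-H2bc4 had 81.6 and 93.8 in the controls and 66.9 and 86.0 with esculetin, the highest minimum of any pair. It was followed by H2bc13-H2ac13 (61.8, 67.6, 65.2 and 76.5) and H2bc9-H3c7 (67.8, 74.95, 54.8 and 78.5). At H2bc9-H3c7 the summit of esculetin replicate 2 lay inside H3c7, at -918 bp from the start of H2bc9, and thus away from the place of the other 3 libraries near H2bc9. H3c14 had 69.8, 82.3, 63.7 and 57.2. The peak counted for both H3c13 and H2bc18 (69.3, 59.3, 66.7 and 86.6) lay just before the start of H2bc18. Its summit was 881 to 984 bp past the start of H3c13, so by distance it belonged to the H2B gene. Of the bases of H3c13, 100%, 75.5%, 84.1% and 91.6% lay under a peak. This is more than that peak could cover, so H3c13 also had a peak of its own, whose strength is not given here.

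The other members outside chromosome 13 were more variable. H4f16 on chromosome 6 had 85.4 and 80.8 in the controls and 47.0 and 57.6 with esculetin, with no overlap of the groups. H2aw on chromosome 11 went from 18.1 and 47.1 to 52.6 and 83.5, also without overlap, but its coverage over background overlapped between the groups (3.84 and 6.37 against 5.84 and 9.76). Its start lies beside that of Trim17, a ubiquitin ligase gene, and the same peak served both. On chromosome 3, H2ac18 had 68.3, 33.02, 46.1 and 87.3 and H4c14 38.4, 84.9, 80.6 and 67.5. The pair H2ac20-H2bc21 had 66.7, 63.6, 22.8 and 39.7, and its neighbour H2ac21 had 66.7, 12.5, 22.8 and 42.4. In control replicate 1 and esculetin replicate 1 the value of H2ac21 was that of the pair's peak, 981 and 992 bp from its start and past the gene.

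The weakest members called throughout were mainly H4 genes. H4c9 had 18.6, 47.2, 5.98 and 18.96, H4c4 had 7.50, 60.2, 47.8 and 42.1, and H4c3 had 31.5, 63.4, 11.6 and 54.9. With H4c11 and H2ac21, given above, these had the lowest minimum over the 4 libraries. At H4c4 the 2 control libraries were further apart than any control and esculetin library.

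The peaks over histone genes were broad, and broader in the controls. Over the 45 genes called throughout, the median width was 699 and 853 bp in the controls and 598 and 584 bp with esculetin, without overlap (776 ± 109 against 591 ± 9.90, SD, n = 2 libraries; p = 0.33 by exact permutation). The other coding genes had 513, 521, 463 and 518 bp. Both esculetin peaks were narrower than both control peaks at 21 of 45 members (46.7%), against 26.4% of coding genes, and wider at 0, against 17.9%. Of the 33 distinct peaks, 14 were narrower. Between control replicate 2 and esculetin replicate 2, whose background coverage was nearly equal (4.08 and 4.10) though their lists differed in length, the peak was narrower with esculetin at 33 of 45 members (73.3%) and at 2725 of 5276 other coding genes (51.6%). Counted once per distinct peak, it was narrower at 24 of 33 histone peaks (72.7%). Width also depends on the caller's limit, whose lowest −log10 p was 3.81 and 3.68 in the control lists and 4.16 and 3.93 in the esculetin lists. With peaks of −log10 q of at least 5 the difference was -148 bp and with equal numbers of top peaks -233 bp. Without control replicate 2 it was -108 bp. Counted over the genes with a peak in each library in turn, the medians were 597 and 654 bp against 598 and 560.5 bp, so that the groups overlapped, and the difference was -46.3 bp (exact permutation p = 0.67).

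At the pair H2ac6-H2bc4 the peak spanned 1216 and 959 bp in the controls and 778 and 858 bp with esculetin, and so covered the sequence shown above and parts of both genes. At the pair H2ac20-H2bc21 the widths were 597 and 1050 bp against 314 and 530 bp. H4c18 had 499 and 513 bp against 337 and 315 bp. The narrowing was seen in 9 of 14 H2A, 7 of 14 H2B, 2 of 7 H3 and 3 of 9 H4 genes called throughout, and most of the H2A and H2B genes share 1 peak per pair.

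Much of the extra width lay over the genes themselves. From the start into the gene, the peaks reached a median of 410 and 408 bp in the controls and 268 and 294 bp with esculetin, and before the start 430 and 452 bp against 358 and 418 bp. The other coding genes had 225, 250, 214 and 236 bp into the gene. Both esculetin peaks reached less far into the gene than both control peaks at 16 of 45 members (35.6%, against 22.9% of coding genes) and further at 1 (2.22%, against 19.3%). The lesser reach was also found for 10 of 21 other coding genes of at most 1 kb with a peak in all 4 libraries (47.6%), a larger share than among the histone genes.

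Peaks covered most of the transcribed bases of histone genes in the controls. Of all bases of the 61 members no longer than 1 kb, 59.3% and 67.7% lay under a peak in the controls and 33.4% and 45.6% with esculetin, again without overlap (63.5% ± 5.91 against 39.5% ± 8.63, SD, n = 2 libraries; p = 0.33 by exact permutation). Among members with a promoter peak in the library the cover was 68.2%, 75.6%, 52.0% and 59.1%, and in other short coding genes with a promoter peak it was 28.0%, 39.4%, 25.1% and 27.5%. H4 genes were covered most, with medians of 89.1% and 94.5% in the controls and 59.1% and 71.1% with esculetin. H4c18 was wholly under a peak in both controls and to 58.1% and 50.0% in the esculetin libraries. Both esculetin values lay below both controls at 26 of these 61 members (42.6%) and above at 0. Among the 56 with a base under a peak in any library the share below was 46.4%, against 28.1% of 57 other short coding genes chosen alike, of which 3.51% lay above. That choice admits genes through the controls alone, which can then only lie below. H4c12, H4c17, H2ac10, H3c8, H1f3 and H2ac4, with no base under a peak in either esculetin library, were such members. The cover moved with list length, and with equal numbers of top peaks the order of the groups was the opposite, at 22.5% and 38.0%. Control replicate 2 had both the highest cover and the highest pseudogene share, and the part of the latter was not tested. Without that library the difference was -19.7 percentage points.

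**Figure D3:**
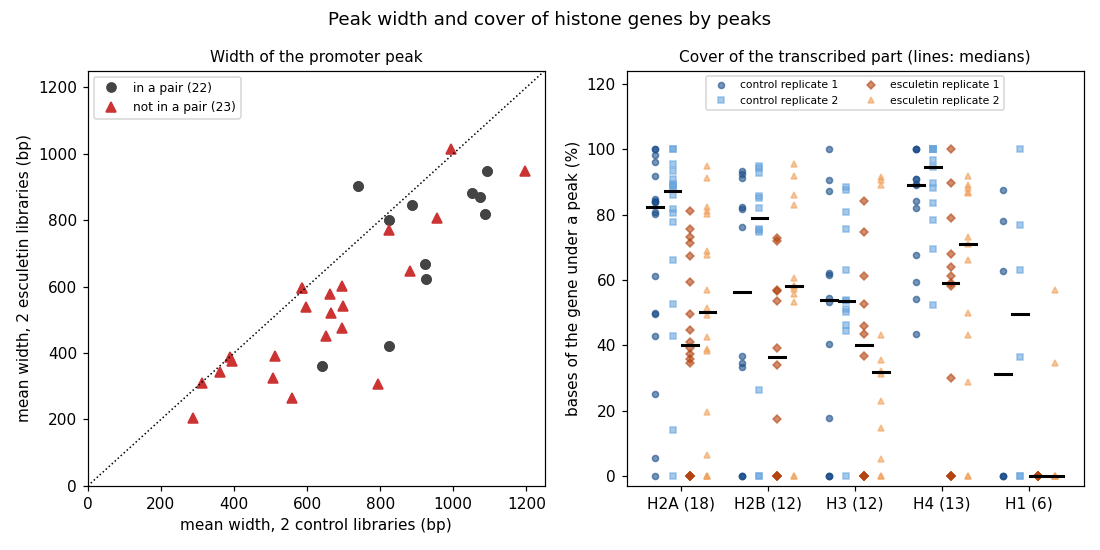
Left, mean width of the promoter peak (bp) in the 2 control (horizontal) and 2 esculetin libraries (vertical) for 45 histone genes called in all 4 libraries, with the dotted line at equal widths; genes of a pair share a point. Right, percent of each gene of at most 1 kb under a peak, by class and library, with lines at the medians; most points on the left lie under the line, and the H4 medians are 89.1% and 94.5% in the controls and 59.1% and 71.1% with esculetin.

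The summit itself lay in different places in the 2 arrangements. In pairs with a peak (12, 12, 11 and 12 of 13), the summit lay between the starts in 6 and 5 pairs in the controls and in 8 and 9 with esculetin. Over the other coding pairs with a peak, the share was 51.1% and 46.9% in the controls and 50.1% and 51.2% with esculetin. At H2ac6-H2bc4 it lay inside H2bc4 in both controls, 102 and 160 bp past its start, and 67 bp past it in esculetin replicate 1. In esculetin replicate 2 it lay between the starts, 104 bp before H2bc4. In other pairs it moved across the shared stretch in either direction, as at H2ac12-H2bc12, where it lay between the starts in every library but control replicate 2.

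Outside pairs the summit lay inside the gene at 19 of 36 and 23 of 37 called genes in the controls, and at 10 of 23 and 9 of 30 with esculetin (52.8%, 62.2%, 43.5% and 30.0%). Over the other unpaired coding genes the shares were 42.2%, 45.2%, 44.7% and 42.6%, and among those of at most 1 kb it was 17 of 37, 24 of 40, 7 of 19 and 12 of 25. None of the H4 genes is in a pair. Their median summit lay 126 and 166 bp past the start in the controls, 45 bp past it in esculetin replicate 1 and 6 bp before it in esculetin replicate 2. Inside the gene were 11 of 13 and 11 of 13 H4 summits in the controls and 6 of 9 and 5 of 11 with esculetin. At H4f16 the summit lay 392 and 281 bp past the start in the controls and 11 and 23 bp before it with esculetin, and at H4c8 278 and 166 bp past against 27 and 6 bp before. H4c1 went the other way, with summits 77 and 134 bp before the start in the controls, 35 bp past it in esculetin replicate 1 and 64 bp before it in esculetin replicate 2.

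Over the 45 genes called throughout, the median signed distance was -48 and -32 bp in the controls and -61 and -83 bp with esculetin (exact permutation p = 0.33), and the other coding genes had -32, -29, -23 and -30 bp. Both esculetin summits lay further upstream than both control summits at 12 members (26.7%), against 15.4% of coding genes, and further downstream at 7 (15.6%), against 20.3%. The pairs H2ac15-H2bc15, H2ac22-H2bc22, H2ac24-H4bc24, H2ac11-H2bc11 and H2ac6-H2bc4 were counted once in each direction. A shared summit that moves upstream of 1 gene moves downstream of its partner. Outside pairs, H3c15, H4c14, H4f16, H2bc14, H4c18, H4c8 and H3c6 lay further upstream, and H3c2 and H4c1 further downstream. With equal numbers of top peaks the difference between groups was -2.0 bp in place of -32 bp. It was -72 bp without esculetin replicate 1 and -21 bp without esculetin replicate 2. Over the genes with a peak in each library in turn it was -84.3 bp, and over the unpaired genes alone -62.5 bp. The shift of the medians thus depended on which genes and peaks were kept.

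**Figure D4:**
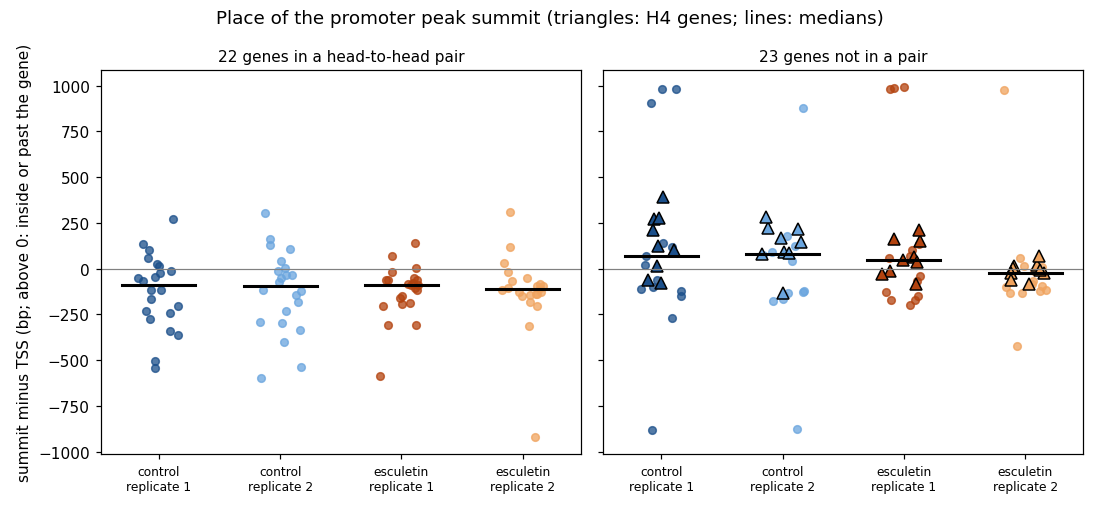
Distance of the summit from the start (bp; above 0 inside or past the gene) in each library for the 22 paired and 23 unpaired histone genes called in all 4 libraries; each point is a gene, triangles are H4 genes and lines are medians. The H4 triangles lie mostly above 0 in both controls and around 0 in esculetin replicate 2.

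Between the outermost genes of the clusters most peaks lay at a histone gene. The clusters held 61, 63, 36 and 51 peaks, of which 51, 55, 35 and 46 lay in a histone promoter window and 7, 7, 0 and 3 lay outside any promoter or histone gene. Of 10 other coding genes inside the clusters, among them the iron regulator Hfe and the phosphate transporters Slc17a1 to Slc17a4, Trim17 alone had a promoter peak.

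Histone genes outside the rule, which encode histone variants not tied to replication in S phase, were compared as a list of 11 genes. A promoter peak was called at 8, 9, 5 and 6 of them, and at 5 in all 4 libraries. H2az2 (97.3, 86.1, 91.3 and 96.0), H2ax (81.7, 97.6, 80.7 and 81.8) and H2az1 (94.5, 89.6, 77.5 and 85.1) were the strongest and encode variants of H2A with roles in transcription and DNA damage. The linker gene H1f0 had a peak in the controls alone (25.2 and 99.9) and H1f10 in control replicate 2 alone (96.6). H2aj lacked a peak in esculetin replicate 1, macroH2a1 had one in the controls alone (53.8 and 12.4), and macroH2a2 and H3f3b had none at the start used here.

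Most genes that serve histone supply had a promoter peak. Of 28 such genes, 26, 26, 24 and 25 had a promoter peak, and 23 had one in all 4 libraries (82.1%, against 24.8% of coding genes). Of 12 genes for transcription at histone loci, 10 were called in all 4. Npat had percentiles of 98.1, 91.8, 94.6 and 97.9, Casp8ap2 (FLASH), its partner in the histone locus body, had 94.1, 93.5, 91.8 and 96.3, and Pou2f1, which encodes OCT1, had 95.7, 89.8, 98.4 and 97.7. Cdk2, the S phase kinase that phosphorylates NPAT, lacked a peak in esculetin replicate 1 (90.1, 88.1 and 43.7 elsewhere), and Nfyc, a subunit of the CCAAT-binding factor NF-Y, had none at the start used here.

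Of 9 genes for the 3′ end of histone transcripts, 8 were called in all 4 libraries, and Ncbp1, a cap-binding subunit, lacked a peak in control replicate 2. Of 7 chaperone and import genes, 5 were called in all 4. Nasp, which binds free H3 and H4, had a peak in control replicate 2 alone (55.9), and the importin Ipo4 in both controls alone (25.2 and 43.0). The median percentile of the called genes of all 3 roles was 88.4, 77.6, 83.7 and 81.6. Over the replication-dependent histone genes with a peak in each library, a like selection, the medians averaged 55.9 in the controls and 56.0 with esculetin.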

How the data were processed

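Peak lists of 4 ATAC-seq libraries (2 control, 2 esculetin) were analysed. Per the study's methods, the authors trimmed reads with Trim-Galore, aligned them to mm10 with Bowtie2, used Sambamba to drop duplicates and reads that mapped to several places, and ran MACS2 on each library, whose options are not given in the sources used here. The deposited lists give for each summit a fold enrichment (a ratio), −log10 p and −log10 q, and a score made by the authors' caller from −log10 q. They hold no reads, so no count model was run.

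Summit coverage and genome-wide background, the measure of depth, were solved from the deposited fold and −log10 p, taking MACS2's fold as coverage plus 1 over background plus 1 and p as Poisson. The procedure was tested on simulated data: of 1266 simulated peaks 100% were returned, as were 200 of 200 planted promoter peaks. A gene had a promoter peak if a summit lay within 1000 bp of its 5′ end, and the strongest by −log10 p was taken. RefSeq genes (GRCm38.p6) gave positions. Strand came from the RefSeq promoter table or, without coordinates, from GENCODE vM39 by symbol (5 members).

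Libraries were grouped by the treatment in the labels. Group values are mean ± SD (n = 2) with two-sided exact permutation tests over 6 splits. Clusters were split at gaps over 500000 bp. The members and lists were chosen with earlier results of these data known. Named members were those called in none, in 1 to 3, or outside chromosome 13, the 10 strongest with ties and 5 weakest by lowest percentile, and the 3 strongest pairs; of the fixed lists, those called in under 4 libraries and the 3 strongest. Members named beside a non-overlap count, for width or summit place were chosen after their values were seen. The labels number the libraries of both groups 1 and 2 and were followed, although peak names inside the esculetin lists carry the numbers 2 and 3; groups do not rest on these numbers, but the replicate block does. Alternatives were other windows, limits, list lengths, gene starts and left-out libraries. Scripts ran under Python 3.11.15 with SciPy 1.17.1, NumPy 2.4.6 and pandas 2.3.3, and plots were drawn with matplotlib 3.10.9.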

Additional observations from a re-analysis of the deposited data

How the results depend on the processing

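With 2 libraries a group no p could fall below 0.33, so only directions and sizes are described, and presence of a call is not a measure of signal. Leaving out each library in turn gave -23.1 to -9.70 percentage points for the share of histone genes with a promoter peak, -27.4 to -12.3 for the 53 promoters, -13.0 to -3.09 for the median percentile, -1.38 to 1.88 for the coverage over background, 15.9 to 25.2 points for the paired minus unpaired share, -72 to -21 bp for the summit, -262 to -108 bp for the width and -30.0 to -17.8 points for the gene bases under a peak. Only the coverage changed direction, to -1.38 without control replicate 1 and -1.09 without esculetin replicate 2, from 0.248. Equal numbers of top peaks turned the share to 36.6 points, the promoters to 34.0, the percentile to 27.6, the coverage to -1.52 and the gene bases to 15.5. By construction they cut the control lists most. The percentile difference was 1.18 when ranked by fold, 0.107 over the genes with a peak in each library and 3883 places nearer the top by rank. In calls of single genes, esculetin had 1 more library than control, in place of 1 fewer, at H3c11, H4c6, H2ac8, H2bc8, H3c3 and H4c2 with equal numbers of top peaks and at H2bc6 with summits within 500 or 250 bp. At 250 bp the share differed by -2.99 points. The labels' replicate numbers did not pair the libraries (correlation of deviations 0.00614 over 5321 coding genes), and the replicate block left the share difference at -16.4 points with p = 0.5, the smallest that 2 pairs allow. The planned comparison of protein sequences was not run, and summit place, width and gene bases with their alternatives were added after seeing the data.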
